A study of Homo sapiens with 6 samples.

Results

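The Fanconi anaemia, homologous recombination and checkpoint genes are 40 genes of DNA crosslink and double-strand break repair, chosen by symbol from a fixed list. All 40 were found among the 26255 gene symbols of the deposited tables. The data are poly(A)-selected RNA-seq of HCT116, an established line of human colorectal carcinoma cells. The labels name 3 libraries from ZsGreen fluorescence-negative and 3 from ZsGreen fluorescence-positive cells of this line. ZsGreen is a green fluorescent protein, and the series title speaks of cells transduced with the degron of ornithine decarboxylase, a sequence that sends proteins to the proteasome, as a model of cancer stem cells. The labels give no treatment, time or culture for either group and do not say whether the negative cells carry the reporter. The sample titles follow a different scheme in each group, so that any difference in handling cannot be told apart from the groups. The labels do not tie the libraries of a group to separate cultures, and the p-values therefore reflect variation among the 3 libraries alone, possibly only technical.

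An interstrand crosslink binds both strands of DNA to each other and stops a replication fork. The Fanconi core complex is a ubiquitin ligase that recognises such a fork and marks the FANCD2-FANCI pair, which then calls in nucleases that unhook the lesion. The break this leaves is resected and repaired by homologous recombination, in which BRCA1, PALB2 and BRCA2 act one after another to start strand exchange with an intact copy. The kinases ATM and ATR sense breaks and single-stranded DNA, and act through CHEK2 and CHEK1 to hold the cell cycle. Recombination needs a sister chromatid, so many of these genes are known to be expressed mainly in S and G2 phase.

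Many of these genes are known targets of E2F factors, which bind near the start of genes of DNA synthesis. The bases just before the start of 5 members are shown because they cover 3 genes that rose (RAD51AP1, BLM and RAD54L), a gene that did not pass the test (FANCL) and the gene that fell (ATM). They are RefSeq sequences of build GRCh38.p14, written 5′ to 3′ on the strand of the gene, and end at the last base before the annotated start. Capitals mark the string TTCCCGCC, on either strand, which is the core of a common E2F site. The 3 risen genes shown all carry it, but only 9 of the 27 risen members with a promoter window do. The examples therefore do not represent the risen genes.
RAD51AP1 (chr12:4538790-4538889, plus strand): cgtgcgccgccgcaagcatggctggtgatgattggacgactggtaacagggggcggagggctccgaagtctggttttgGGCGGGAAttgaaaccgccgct
BLM (chr15:90717246-90717345, plus strand): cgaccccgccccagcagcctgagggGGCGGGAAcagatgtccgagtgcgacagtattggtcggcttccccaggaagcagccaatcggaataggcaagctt
RAD54L (chr1:46247588-46247687, plus strand): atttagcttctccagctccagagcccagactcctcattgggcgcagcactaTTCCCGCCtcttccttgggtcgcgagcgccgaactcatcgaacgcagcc
FANCL (chr2:58241326-58241425, minus strand): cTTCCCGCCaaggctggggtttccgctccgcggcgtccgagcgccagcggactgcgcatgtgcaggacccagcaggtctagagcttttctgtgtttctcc
ATM (chr11:108222967-108223066, plus strand): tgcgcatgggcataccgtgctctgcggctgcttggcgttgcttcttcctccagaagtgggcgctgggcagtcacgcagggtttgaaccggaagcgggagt

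Windows of 300 bases around the start (250 before it, 50 after) were found for 36 of the 40 members. The string TTCCCGCC, added to the search after the windows had been read, lay in a window of 11 of these 36 genes (30.6%). Of 9036 tested genes with a window, 6.55% had it, and of all 35116 windows, counted per window and not per gene, 3.16%. Since the string was picked after the windows had been read, these shares are a description only. TTCCCGCC was found for 9 of the 27 members with a window that rose and for 2 of the 9 others, FANCL and RMI1. The E2F-type strings TTTCCCGC, TTTGGCGC and TTTCGCGC, of the same length, were searched from the outset, and the first can overlap TTCCCGCC. They were present for 4 of 36 members (11.1%, against 5.75% of tested genes). These members were FANCC, FANCD2, TOPBP1 and XRCC2. The CHR string TTTGAA was present for 4 of 36 (13.2% of tested genes), among them ATM and POLQ, and CCAAT for 16 of 36 (44.4%, against 43.6%). A match of letters is no evidence of binding.

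Expression is given in FPKM, the fragments counted for a gene divided by its length in kilobases and by the library's mapped fragments in units of 1000000, which allows levels of different genes to be compared per length. Group values are means ± SD over n = 3 libraries. Log2 fold changes are differences of group means of log2(FPKM + 1), positive less negative. Low genes change by more than this scale shows. Each value is given with its SE. "Rose" and "fell" are used where limma's adjusted p was under 0.05 over all 12213 genes with a mean of at least 1 FPKM. Depth, estimated from the smallest FPKM steps, was 9440000 to 9860000 fragments in the negative libraries and 12100000 in positive replicate 1. In positive replicates 2 and 3 the steps rested on 12 and 10 genes only (12800000 and 13700000 fragments). In these libraries only 7.11% and 8.87% of low genes were at 1 fragment, against 26.4% to 34.2% in the others. Despite the higher estimates, more genes were listed at 0 in the positive libraries (10314, 11624 and 11989) than in the negative ones (8985, 9040 and 9162). The cause was not tested. Epithelial markers were mixed in level and direction. EPCAM was at 129 ± 3.86 against 147 ± 7.75 FPKM and rose, while CDH1 fell from 49.8 ± 0.455 to 17.4 ± 1.42 FPKM. KRT8 (1518 ± 23.5 to 1152 ± 63.1 FPKM) and KRT18 (1505 ± 20.3 to 955 ± 90.2 FPKM) fell as well. Of 8 epithelial markers 6 were tested, of which 2 rose and 3 fell. CDX1 was listed at 0 throughout, and VIL1 averaged 0.0247 FPKM in the negative and 0 in the positive libraries. Of 14 markers of fibroblasts, leukocytes and endothelium, 10 stayed under 0.2 FPKM in every library. Of these 10, 4 were listed at 0 throughout. The highest of the 14 were COL1A1 (2.10 ± 0.113 against 0.865 ± 0.266 FPKM) and LYZ (1.81 ± 0.206 against 0.605 ± 0.815 FPKM). The sum of the 14 was 4.11 to 4.67 FPKM in negative and 1.154 to 2.89 in positive libraries. The part of these markers in the results was not tested.

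Transcripts of the crosslink and recombination machinery were higher in the ZsGreen-positive cells. Of the 40 genes, 30 rose (75%, against 29.4% of all tested genes), 1 fell (30.0% of all tested genes fell) and 9 did not pass. On the log2(FPKM + 1) scale, at least 2-fold rises were found for 22 of the 40 (9.48% of all tested genes) and at least 4-fold rises for 8 (2.20%). By the ratio of mean FPKM further genes exceeded 4-fold, such as BRCA1 (4.36) and POLQ (8.61). The median log2 fold change was 1.19, against 0.0040 over all tested genes. The groups did not overlap for 31 genes with the positive libraries above (33.2% of all tested genes) and for 1 with the negative libraries above (34.5%), that is for 32 genes in all (67.6%). With positive replicate 1 as the only positive library, 31 rose and 1 fell. All 40 passed the filter on low values, but 6 had a negative mean under 1 FPKM and passed through their positive level. Among the other 34, 26 rose and 1 fell. The summed FPKM of the 40 genes was 239, 247 and 246 in the negative and 529.6, 586 and 559 in the positive libraries. As a share of all FPKM this was 0.0134% ± 0.000183 against 0.0348% ± 0.00497 (two-sided exact permutation p = 0.1, the lowest value that 3 against 3 libraries allow). In bulk RNA, fewer cells that express a gene and less of its RNA per cell cannot be told apart.

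**Figure D1:**
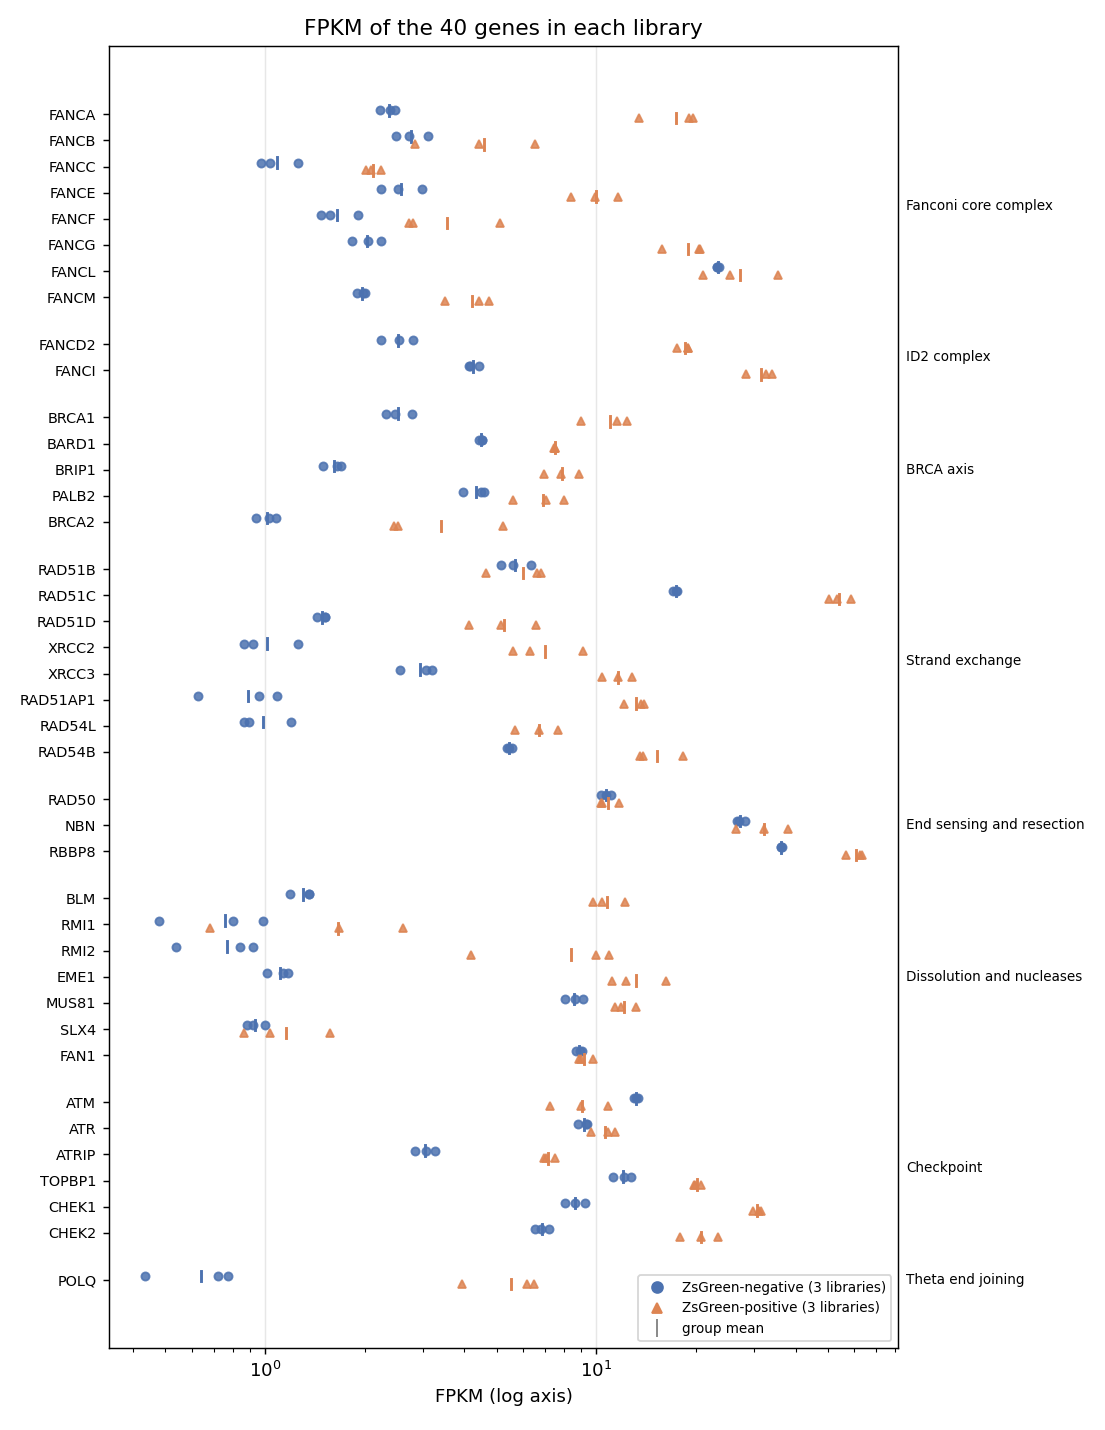
FPKM (log axis) of the 40 genes in each library, ordered by role; circles are the 3 ZsGreen-negative and triangles the 3 ZsGreen-positive libraries, and vertical ticks are group means. FANCI, RAD51AP1, BLM, EME1 and CHEK1 are far apart between the groups, while RAD50, FAN1, SLX4 and RAD51B overlap.

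The core complex divided into strongly and weakly raised subunits. FANCA, FANCG and FAAP20 form one module of the complex, FANCB, FANCL and FAAP100 the catalytic module, and FANCC, FANCE and FANCF a module that helps the ligase meet its substrate. FANCG was at 1.83, 2.24 and 2.04 FPKM in the negative and 15.8, 20.6 and 20.4 in the positive libraries (log2 fold change 2.71 ± 0.13, adjusted p = 4.47e-06). FANCA was at 2.47, 2.23 and 2.39 against 19.6, 19.1 and 13.5 FPKM (2.43 ± 0.15, adjusted p = 1.29e-05). Every positive library lay far above every negative one for FANCG and FANCA. FAAP20, which is not among the 40 genes and was added after its value was seen, was at 9.65 ± 0.967 against 19.96 ± 4.19 FPKM (0.96 ± 0.15, adjusted p = 0.00108). FANCE was at 2.24, 2.97 and 2.51 against 8.37, 9.91 and 11.6 FPKM, a log2 fold change of 1.61 ± 0.15 (adjusted p = 7.73e-05). Its module partners rose less. FANCC was at 1.26, 0.972 and 1.03 against 2.02, 2.24 and 2.09 FPKM (0.58 ± 0.15, adjusted p = 0.0116), and FANCF at 1.91, 1.47 and 1.57 against 5.12, 2.80 and 2.72 FPKM (0.74 ± 0.22, adjusted p = 0.0213). Neither call held without negative replicate 2 (adjusted p = 0.0644 for FANCC and 0.0727 for FANCF) or negative replicate 3 (adjusted p = 0.0570 and 0.0672).

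FANCL, the RING-finger subunit that carries the ligase activity, did not pass and was the most abundant core gene in both groups. It was at 23.1, 23.5 and 23.1 FPKM in the negative and 25.3, 35.4 and 21.0 in the positive libraries (log2 fold change 0.19 ± 0.17, adjusted p = 0.369). The positive libraries lay on both sides of the negative ones. FANCB, its X-linked partner, was at 2.48, 2.72 and 3.10 against 2.83, 6.53 and 4.41 FPKM (0.52 ± 0.24, adjusted p = 0.101). Its groups overlapped through positive replicate 1, and without that library FANCB passed (adjusted p = 0.0106). FANCM, the translocase that anchors the complex on DNA, rose from 1.89, 2.00 and 1.98 to 3.50, 4.41 and 4.73 FPKM (0.81 ± 0.14, adjusted p = 0.00178).

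The substrates of the ligase rose more than 4-fold on the log2(FPKM + 1) scale and stayed in balance with each other. FANCI was at 4.12, 4.15 and 4.43 FPKM in the negative and 32.4, 33.9 and 28.2 in the positive libraries (log2 fold change 2.63 ± 0.0941, adjusted p = 1.57e-06). FANCD2 was at 2.23, 2.79 and 2.54 against 18.96, 17.5 and 18.98 FPKM (2.47 ± 0.10, adjusted p = 2.5e-06). The ratio of FANCD2 to FANCI in FPKM was 0.596 ± 0.0683 in the negative and 0.591 ± 0.0785 in the positive libraries.

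All 5 genes of the BRCA1-BRCA2 axis rose (29.4% of all tested genes did), to unequal degrees. BRCA1, which promotes resection of broken ends, was at 2.32, 2.77 and 2.46 FPKM in the negative and 9.01, 11.6 and 12.4 in the positive libraries (log2 fold change 1.76 ± 0.14, adjusted p = 3.87e-05). BRIP1, a helicase that binds BRCA1, was at 1.69, 1.65 and 1.496 against 6.95, 8.87 and 7.85 FPKM (1.76 ± 0.13, adjusted p = 2.51e-05). BARD1, the obligate RING partner of BRCA1, was already higher in the negative libraries and rose less. Its values were 4.53, 4.43 and 4.52 against 7.51, 7.53 and 7.46 FPKM (0.63 ± 0.0903, adjusted p = 0.00075), with the narrowest spread of the 40 genes in the positive group (a coefficient of variation, SD over mean, of 0.495%). PALB2, which ties BRCA1 to BRCA2, was at 3.97, 4.48 and 4.57 against 5.62, 7.98 and 7.06 FPKM (0.55 ± 0.14, adjusted p = 0.0107). BRCA2, which acts at the start of strand exchange, was at 1.08, 1.02 and 0.937 against 2.46, 5.22 and 2.52 FPKM (1.07 ± 0.25, adjusted p = 0.00719). Positive replicate 2 held about as much BRCA2 as the other positive libraries together.

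Of 8 further genes of strand exchange, 7 rose (87.5%, against 29.4% of all tested genes). Each of the 7 rose at least 2-fold (9.48% of all tested genes). RAD51AP1, which stimulates strand pairing, had the largest log2 fold change of the 40 genes. It went from 0.962, 0.626 and 1.09 FPKM to 12.1, 13.9 and 13.6 FPKM (2.92 ± 0.14, adjusted p = 3.96e-06). Its negative values rest on an estimated 10 to 18 fragments per library. Both motor proteins of the filament rose as well. RAD54L went from 0.866, 1.20 and 0.894 to 5.68, 7.67 and 6.74 FPKM (1.95 ± 0.15, adjusted p = 3.64e-05) and RAD54B from 5.37, 5.55 and 5.46 to 13.8, 18.2 and 13.6 FPKM (1.32 ± 0.12, adjusted p = 9.57e-05).

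RAD51B, RAD51C, RAD51D and XRCC2 work in one assembly, and a smaller one is made of RAD51C and XRCC3. RAD51C, which both share, was the most abundant of these 5 genes, at 17.1, 17.4 and 17.6 FPKM in the negative and 53.4, 50.3 and 58.8 in the positive libraries (log2 fold change 1.58 ± 0.0753, adjusted p = 4.23e-06). XRCC3 was at 2.56, 3.06 and 3.18 against 12.8, 11.6 and 10.4 FPKM (1.68 ± 0.12, adjusted p = 2.51e-05). The groups were far apart for both. XRCC2 was at 1.26, 0.917 and 0.867 against 5.59, 6.30 and 9.14 FPKM (1.97 ± 0.19, adjusted p = 0.000107). RAD51D was at 1.51, 1.51 and 1.44 against 6.58, 4.13 and 5.14 FPKM (1.32 ± 0.17, adjusted p = 0.000403). RAD51B was the one of them that did not pass, at 5.17, 5.59 and 6.34 against 4.66, 6.63 and 6.79 FPKM (0.0576 ± 0.15, adjusted p = 0.761). Its positive libraries lay on both sides of the negative ones.

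Of 3 genes of break sensing and resection, 1 rose (33.3%, near the 29.4% of all tested genes). RAD50, the coiled-coil subunit of the MRN complex that holds broken ends, was at 10.7, 10.4 and 11.1 FPKM in the negative and 10.4, 10.3 and 11.7 in the positive libraries (log2 fold change 0.0086 ± 0.0861, adjusted p = 0.937). NBN, the MRN subunit that recruits ATM, was at 26.5, 28.1 and 27.0 against 26.4, 37.9 and 32.1 FPKM (0.22 ± 0.12, adjusted p = 0.170). Positive replicate 1 was level with the negative libraries, and without it NBN passed (adjusted p = 0.0139). RBBP8, also called CtIP, starts resection with MRN and had the highest level of the 40 genes in both groups. It rose from 36.0, 36.3 and 36.1 FPKM to 63.5, 56.8 and 62.7 FPKM (0.74 ± 0.0650, adjusted p = 6.72e-05).

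Among genes that undo joint DNA molecules, BLM, RMI2 and EME1 rose more than 4-fold, while RMI1, SLX4 and FAN1 did not pass. BLM, the helicase mutated in Bloom syndrome, was at 1.36, 1.19 and 1.35 FPKM in the negative and 9.75, 12.2 and 10.4 in the positive libraries (log2 fold change 2.35 ± 0.12, adjusted p = 6.22e-06). RMI2, a small stabilising partner of BLM, was at 0.537, 0.843 and 0.919 against 4.18, 9.996 and 10.9 FPKM (2.32 ± 0.32, adjusted p = 0.000579). RMI2 rests on an estimated 7 to 12 fragments per negative library. RMI1, its direct partner, did not pass, at 0.479, 0.7995 and 0.988 against 2.61, 1.67 and 0.684 FPKM (0.54 ± 0.30, adjusted p = 0.157). Positive replicate 1 had the most RMI1 and the least RMI2 of its group, and positive replicate 3 the least RMI1 and the most RMI2. RMI1 passed without positive replicate 3 (adjusted p = 0.0177). Its log2 fold change was 1.05 with positive replicate 1 as the only positive library.

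EME1, the regulatory subunit of a structure-specific nuclease, was at 1.14, 1.011 and 1.17 FPKM in the negative and 11.1, 16.2 and 12.3 in the positive libraries (log2 fold change 2.74 ± 0.15, adjusted p = 8.13e-06). MUS81, its catalytic partner, was at 8.62, 8.04 and 9.11 against 11.4, 13.2 and 11.8 FPKM (0.45 ± 0.0933, adjusted p = 0.00433). Both rose without overlap, but by very different amounts. The exons of MUS81 overlap those of the abundant gene CFL1 on the opposite strand, which also rose (0.95 on the same scale). The part of CFL1 in the value of MUS81 was not tested. SLX4, a scaffold for nucleases, was at 0.997, 0.883 and 0.921 against 1.04, 1.57 and 0.863 FPKM (0.14 ± 0.19, adjusted p = 0.531). The nuclease FAN1, which cuts near crosslinks, was at 8.68, 9.05 and 8.93 against 9.75, 8.89 and 8.97 FPKM (0.0449 ± 0.0841, adjusted p = 0.666). For both genes the groups overlapped.

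POLQ, the polymerase of theta-mediated end joining, a pathway that competes with recombination for resected ends, was at 0.434, 0.719 and 0.773 FPKM in the negative and 3.94, 6.16 and 6.49 in the positive libraries (log2 fold change 1.97 ± 0.20, adjusted p = 0.000139). It had the lowest negative mean of the 40 genes, and its groups did not overlap.

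The checkpoint genes moved in different directions. CHEK1, the effector kinase of ATR, was at 8.03, 9.26 and 8.60 FPKM in the negative and 30.9, 31.3 and 29.7 in the positive libraries (log2 fold change 1.72 ± 0.0787, adjusted p = 3.88e-06). CHEK2, the effector kinase of ATM, was at 6.79, 7.22 and 6.54 against 20.8, 17.8 and 23.3 FPKM (1.46 ± 0.11, adjusted p = 3.33e-05). Both effector kinases rose in every positive library, although CHEK2 has pseudogene copies that could share its reads. ATRIP, which brings ATR to single-stranded DNA, rose from 3.26, 2.84 and 3.05 to 7.06, 6.93 and 7.51 FPKM (1.013 ± 0.10, adjusted p = 0.000147). TOPBP1, an activator of ATR, rose from 11.2, 12.7 and 12.1 to 19.8, 20.6 and 19.8 FPKM (0.70 ± 0.0771, adjusted p = 0.000209).

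The apical kinases did not follow their effectors. ATM fell from 13.2, 13.0 and 13.3 FPKM in the negative to 7.24, 10.9 and 8.98 in the positive libraries (log2 fold change -0.51 ± 0.14, adjusted p = 0.0131). Every positive library was below every negative one. ATM did not pass with each library rescaled to a sum of 1000000 (-0.33, adjusted p = 0.133) or rescaled so without small RNA genes (-0.38, adjusted p = 0.0972). ATR was at 9.38, 9.33 and 8.82 against 9.62, 10.9 and 11.4 FPKM (0.19 ± 0.0926, adjusted p = 0.116). Its groups did not overlap but were close, and it passed under both rescalings (adjusted p = 0.0486 and 0.0438) and without positive replicate 1 (adjusted p = 0.0298). The rescalings move the median of all tested genes by more than 0.1, to 0.15 and 0.13, and against that shift ATM stays lower and ATR higher by about as much as in the deposited values.

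**Figure D2:**
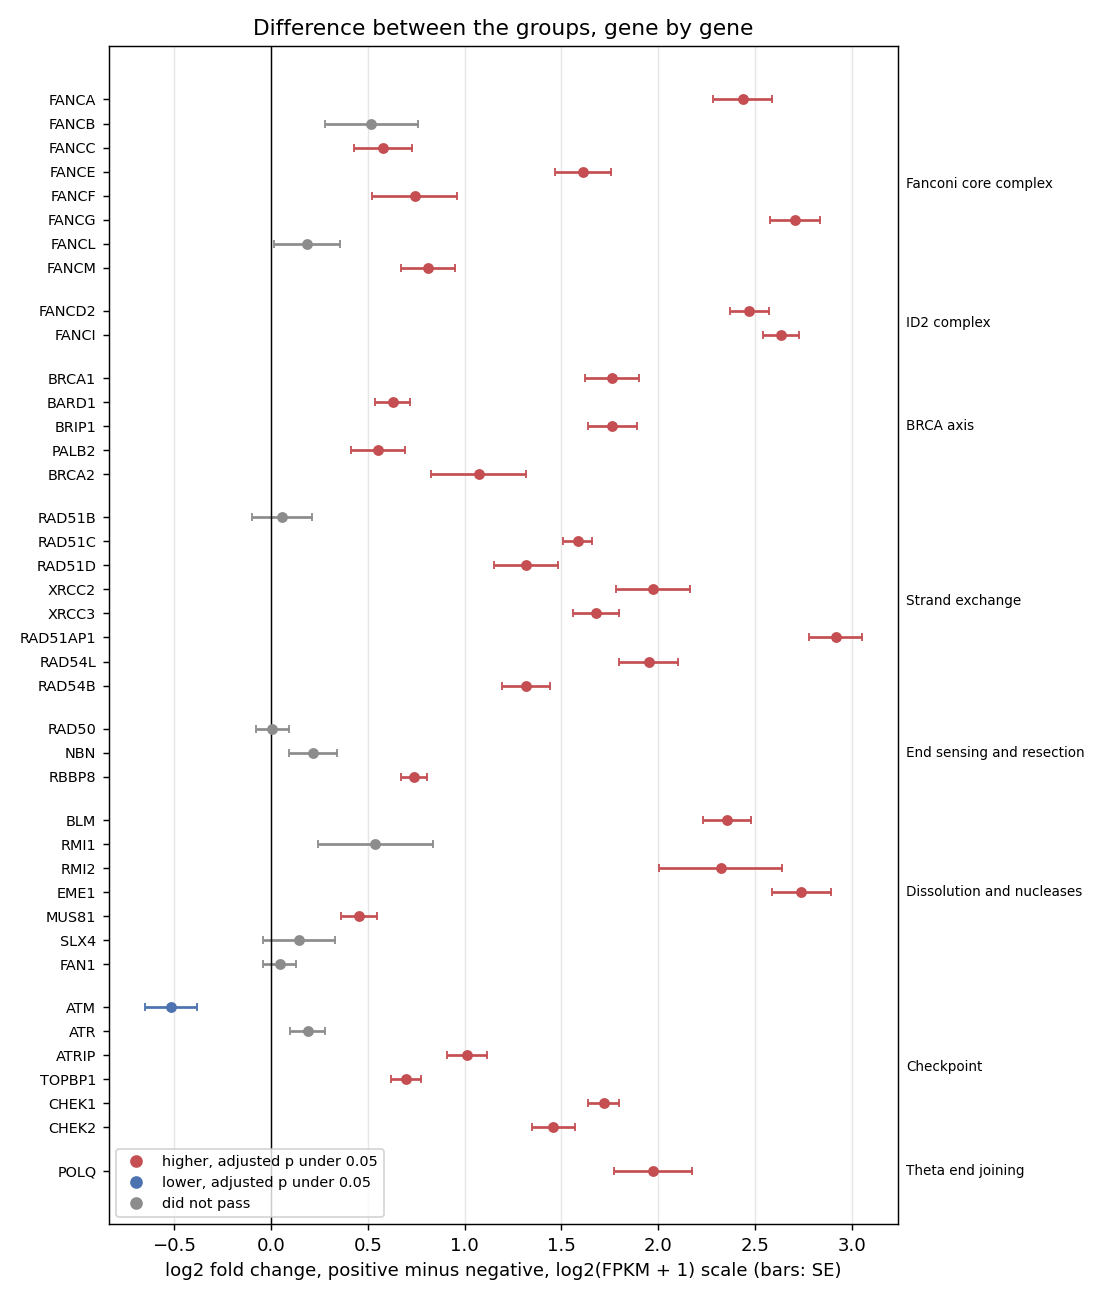
Log2 fold change (positive minus negative, log2(FPKM + 1) scale) of each of the 40 genes, ordered by role, with bars for the SE; red genes rose, the blue gene fell and grey genes did not pass. ATM at -0.51 is the only gene left of 0, and RAD51AP1 at 2.92 is the farthest right.

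The balance between partners was compared in 15 pairs whose products work together, as the ratio of their FPKM in each library. MUS81 was 7.77 ± 0.187 times as abundant as EME1 in the negative and 0.935 ± 0.109 times in the positive libraries. BRCA1 was at 0.561 ± 0.0596 of BARD1 in the negative and 1.47 ± 0.238 times BARD1 in the positive libraries, so that the order of the partners was reversed. ATR to ATRIP went from 3.02 ± 0.231 to 1.48 ± 0.106. The order of the apical kinases also changed, since ATM to ATR was 1.44 ± 0.0652 in the negative and 0.847 ± 0.133 in the positive libraries. RAD54L to RAD54B went from 0.180 ± 0.0309 to 0.443 ± 0.0468, and BRCA2 to PALB2 from 0.235 ± 0.0343 to 0.483 ± 0.154. RMI1 to RMI2 went from 0.971 ± 0.0944 to 0.285 ± 0.299, and BLM to RMI1 from 1.90 ± 0.815 to 8.76 ± 5.88. In the positive libraries both RMI1 and RMI2 varied widely (coefficients of variation of 58.3% and 43.7%).

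Tested on the log2(FPKM + 1) scale, the ratios of these 8 pairs did not overlap between the groups (two-sided exact permutation p = 0.1 for each, the lowest value possible, and adjusted p = 0.188 over 15 pairs). No pair could therefore pass a threshold of 0.05. The share of other gene pairs whose ratios do not overlap was not computed. Among single tested genes, 67.6% did not overlap between the groups, so the count of 8 pairs is a description only. The other 7 pairs overlapped on that scale, with exact permutation p from 0.2 to 0.6. Among them, CHEK1 to CHEK2 was 1.26 ± 0.0688 against 1.51 ± 0.244 and RAD51C to XRCC3 5.96 ± 0.610 against 4.72 ± 0.827. FANCA to FANCG was 1.17 ± 0.179 against 0.944 ± 0.291, RAD50 to NBN 0.395 ± 0.0228 against 0.344 ± 0.0641, and RAD51D to XRCC2 1.504 ± 0.262 against 0.798 ± 0.331. FANCE to FANCF went from 1.598 ± 0.422 to 3.15 ± 1.36, with overlap on the log2 scale.

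**Figure D3:**
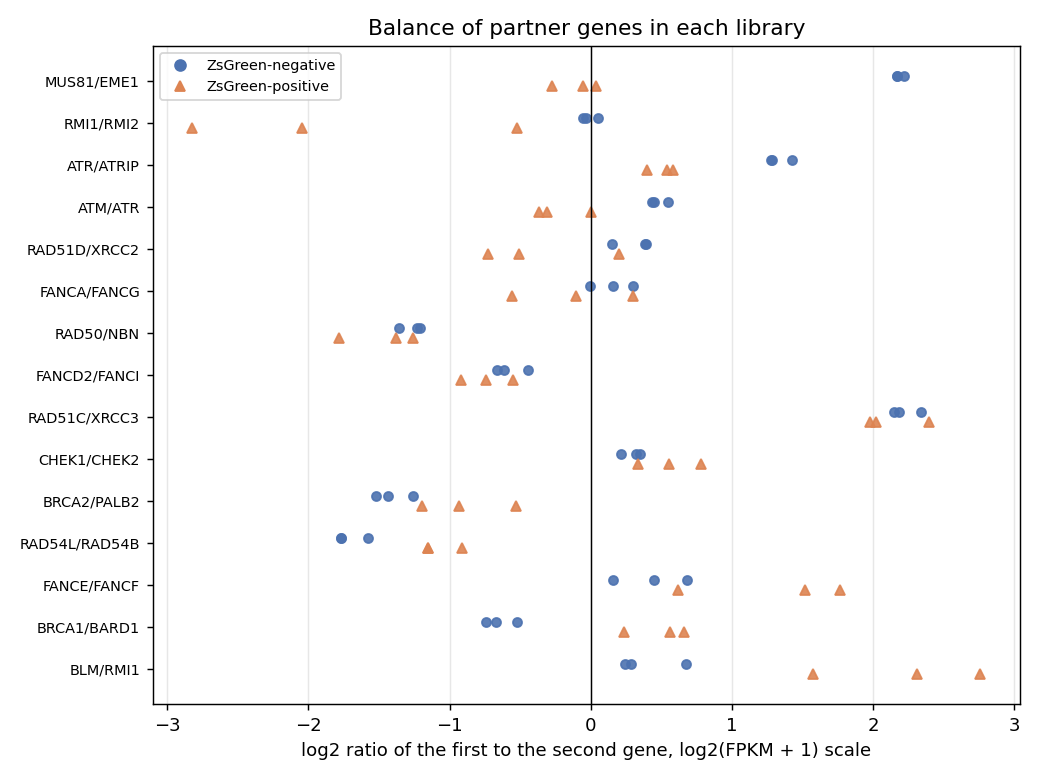
Log2 ratio of the first to the second gene of each of 15 partner pairs (log2(FPKM + 1) scale) in each library; circles are ZsGreen-negative and triangles ZsGreen-positive libraries. Pairs are ordered by the difference between the groups, from MUS81/EME1, lower in the positive libraries, to BLM/RMI1, higher in them, and FANCD2/FANCI and RAD51C/XRCC3 overlap.

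The 40 genes were also counted by their level in the negative libraries. Rises of 2-fold are again counted on the log2(FPKM + 1) scale. Of 22 genes with a negative mean under 3 FPKM, 19 rose, 16 of them at least 2-fold, with a median log2 fold change of 1.76. These 22 include the 6 genes under 1 FPKM that passed the filter through their positive level, 4 of which rose. Among all 2566 tested genes at that level 30.9% rose and 15.6% rose at least 2-fold. Of 7 genes at 3 to 8 FPKM, 6 rose (30.8% of all tested genes at that level). Of 11 genes at 8 FPKM or more, 5 rose and 1 fell, with a median of 0.22 (28.2% of 6679 tested genes rose). The negative values enter both the level and the difference, so these counts are a description only. In order of level, RBBP8, NBN, FANCL, RAD51C and ATM were highest in the negative libraries, where NBN (27.2 ± 0.818 FPKM) and FANCL (23.2 ± 0.225 FPKM) lay apart. In the positive libraries the order was RBBP8 (61.0 ± 3.69 FPKM), RAD51C (54.2 ± 4.33), NBN (32.1 ± 5.77), FANCI (31.5 ± 2.95) and CHEK1 (30.6 ± 0.869), and NBN, FANCI and CHEK1 did not differ beyond their spread. ATM moved from the fifth place to place 23.

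The positive libraries varied more than the negative ones. The median coefficient of variation of the 40 genes was 6.97% in the negative and 15% in the positive group, against 5.48% and 15.1% over all tested genes. RMI1 (58.3%), BRCA2 (46.4%), RMI2 (43.7%), FANCB (40.4%) and FANCF (38.3%) varied most among the positive libraries. Set against the negative libraries one by one, positive replicates 1 to 3 had 35, 37 and 35 of the 40 genes above every negative value. The share of all tested genes above every negative value was not computed for single libraries. For 33.2% of all tested genes every positive library lay above every negative one. The median log2 difference from the negative mean was 1.20, 1.154 and 1.12 in these libraries.

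Exons of 14 of the 40 genes overlap those of another protein-coding gene in the GENCODE 29 annotation. The library kit keeps strand, but whether the authors' counting used it is not given in the sources used here. LRRC59, which overlaps EME1, had a log2 fold change of 0.17, POLG, which overlaps FANCI, 0.22, and ZNF276, which overlaps FANCA, 0.10. KLC1, which overlaps XRCC3, had -0.08 and LRRC41, which overlaps RAD54L, -0.17. MTMR10, beside FAN1, fell by 0.94 on the log2 scale. On the same strand, ATRIP shares exons with TREX1, which had -0.02, RAD54B with FSBP and RAD51D with RAD51L3-RFFL. FSBP was at 1.09 ± 0.509 FPKM in the negative libraries and at 0.00355, 0 and 0 in the positive ones. RAD51L3-RFFL was at 0.698 ± 0.383 FPKM in the negative libraries and listed at 0 in the positive ones. The part of these neighbours in the values of RAD54B and RAD51D was not tested.

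Further genes of the same pathways were counted for context. Of 58 tested further genes of the Fanconi, recombination and checkpoint pathways (59 in the tables), 35 rose (60.3%), 7 fell (12.1%) and 16 did not pass. Of all tested genes, 29.4% rose and 30.0% fell. The median log2 fold change of the 58 was 0.65. UHRF1, a chromatin protein that also senses crosslinks, rose from 3.66 ± 0.341 to 36.2 ± 4.03 FPKM. H2AFX, the histone variant phosphorylated at breaks, rose from 7.54 ± 1.17 to 51.1 ± 10.5 FPKM, and UBE2T, the E2 enzyme that works with FANCL, from 9.53 ± 0.157 to 61.9 ± 8.52 FPKM. Of the pair UBE2T and FANCL, then, the E2 enzyme rose and the ligase subunit did not pass. REV3L, the catalytic subunit of the translesion polymerase zeta, fell from 9.62 ± 0.222 to 3.61 ± 0.307 FPKM. WEE1, the kinase that restrains CDK1, fell from 36.5 ± 1.597 to 16.1 ± 2.52 FPKM, and HUS1, a part of the checkpoint clamp, from 8.998 ± 1.23 to 6.06 ± 0.422 FPKM. HUS1 did not pass under the rescalings to 1000000 (adjusted p = 0.078 and 0.0565), which left 2 of the 7 falls, and 3 falls were left without any 1 of the negative libraries.

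Other repair pathways were counted in the same way, beside the 29.4% of all tested genes that rose and the 30.0% that fell. Of 11 genes of non-homologous end joining, which joins ends without a template, 8 rose, 2 fell and 1 did not pass (median 0.54). C9orf142, a factor also called PAXX, rose from 5.97 ± 0.410 to 35.0 ± 6.81 FPKM, XRCC6, the Ku70 subunit, from 296.7 ± 11.9 to 620.4 ± 32.7 FPKM, and the polymerase gene POLM from 2.39 ± 0.196 to 5.13 ± 0.941 FPKM. LIG4, the ligase of the pathway, fell from 12.2 ± 0.553 to 3.97 ± 0.545 FPKM, and APLF, a scaffold, from 2.38 ± 0.280 to 1.34 ± 0.430 FPKM. The call of APLF was lost under 8 of 16 alternatives (adjusted p = 0.065 to 0.122), among them both rescalings to 1000000, the replicate block and each fit without 1 of the negative libraries. In mismatch repair 3 of 7 genes were called higher and 0 lower (median 0.30), with MSH6 at 12.7 ± 0.408 against 31.4 ± 0.570 FPKM. In base and nucleotide excision repair 28 genes were tested, of which 18 were higher and 4 lower by the test (median 0.55). UNG, which removes uracil, rose from 22.4 ± 1.05 to 80.6 ± 2.15 FPKM, NTHL1 from 9.01 ± 0.577 to 33.8 ± 4.56 and PARP1, a sensor of strand breaks, from 23.0 ± 0.0168 to 77.2 ± 6.75 FPKM. NEIL1 fell from 8.74 ± 0.893 to 5.30 ± 1.12, XPC from 24.01 ± 0.211 to 15.4 ± 1.22 and ERCC6 from 4.33 ± 0.125 to 3.01 ± 0.338 FPKM. The call of ERCC6 was lost under 6 of 16 alternatives (adjusted p = 0.0575 to 0.117), again both rescalings, the block and each fit without 1 of the negative libraries.

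Markers of cycling cells moved with these genes and by more. All 14 rose (29.4% of all tested genes did), with a median log2 fold change of 2.70, against 1.19 for the 40 repair genes. Their summed level was 203 to 214 FPKM in the negative and 974 to 1080.2 FPKM in the positive libraries. E2F1 rose from 0.356 ± 0.0298 to 13.6 ± 2.75, CDK1 from 8.41 ± 0.349 to 93.4 ± 5.72 and the replicative helicase gene MCM7 from 19.5 ± 1.04 to 179 ± 8.12 FPKM. The part of the share of cycling cells in the rises of the repair genes was not tested. Of 10 housekeeping genes 5 rose, 3 fell and 2 did not pass (median 0.11), so that no single reference gene fixes the scale.

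**Figure D4:**
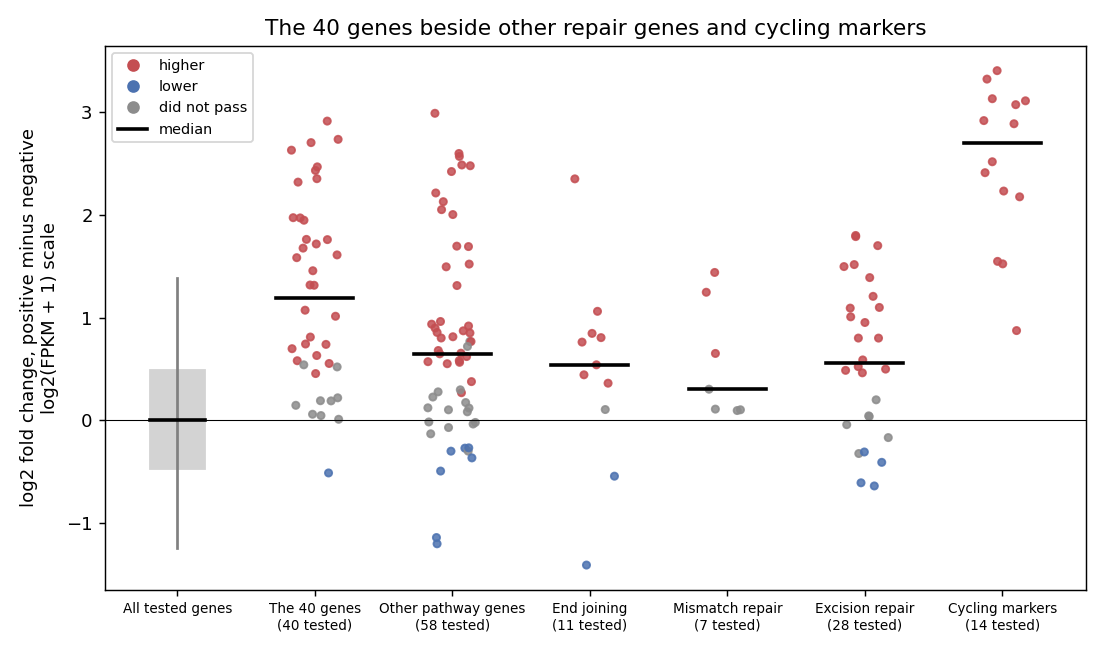
Log2 fold change (positive minus negative, log2(FPKM + 1) scale) of each tested gene of 6 lists, with list medians as black lines; the grey box spans the 25th to 75th and the grey line the 5th to 95th percentile of all tested genes. The 40 genes have a median of 1.19, the other repair lists 0.30 to 0.65 and the cycling markers 2.70.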

How the data were processed

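The authors deposited 1 table of FPKM values per library, with 1 value per gene symbol. The submitters' processing notes list Cuffdiff 2.2.1, TopHat2 2.1.1, SAMtools 0.1.18 and Bowtie2 2.2.8, and the build hg19. For settings, annotation and scaling between libraries, the entry is: not given in the sources used here. Per the labels' protocols, libraries were made with a stranded kit that selects poly(A) RNA. FPKM divides by a library total, so abundant RNAs can shift all other values.

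For the group difference, linear models were fitted in limma 3.58.1 (R 4.3.3) to log2(FPKM + 1), with moderated variances that follow a trend with level. The 12213 genes averaging at least 1 FPKM entered, with two-sided p-values, Benjamini-Hochberg adjustment over all of them and a threshold of 0.05. The step was tested on simulated data. Ratios and shares were tested with exact permutation tests. Alternatives were the pseudocounts 0.1 and 5, no filter or a minimum of 5 FPKM, 4 rescalings, no trend, a replicate block and leaving out libraries.

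Depth was estimated from the commonest step in FPKM multiplied by transcript length over 5512 genes with 1 transcript of at least 1000 nt (GENCODE 29, matched by symbol), and counts fragments after any scaling by the authors. Estimated fragments of a gene use the mean length of its transcripts. No count model was run, since these are not the authors' counts. Promoter windows came from RefSeq (GRCh38.p14), matched by symbol. The 40 genes are accounted for in full, and of every other repair or cycling list up to 3 called genes with the largest rise and up to 3 with the largest fall are named, except genes that are not reported here. Members and lists were chosen with earlier results of these data known. Plots and sequence searches used Python 3.11.15, pandas 2.3.3, NumPy 2.4.6 and matplotlib 3.10.9.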

Additional observations from a re-analysis of the deposited data

How the results depend on the processing

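Of the 30 rises, 28 kept their call under all 17 alternatives in which they were tested (FANCC and FANCF are the others), and the count of rises was 20 to 33, the lowest with 27 of the genes tested at a minimum of 5 FPKM. The fall of ATM was lost under both rescalings to 1000000, leaving 0 of the 40 lower, and these rescalings left 2 lower among the further pathway genes, 1 in end joining and 2 in excision repair. A minimum of 5 FPKM left 1 lower in end joining. With positive replicate 1 as the only positive library 6 mismatch repair genes rose. Leaving out 1 library at a time gave 28 to 33 rises among the 40, 3 to 7 falls among the further pathway genes, 1 to 2 in end joining, 2 to 5 in excision repair, and 8 to 12 separated partner pairs. Deviations of same-numbered libraries from their group means correlated at -0.0211, -0.0301 and -0.0209, so no shared deviation was seen. Taken from means of only 3 libraries, these values cannot decide whether the numbers in the titles pair the libraries. With the replicate number as a block, 30 of the 40 rose, and 4 further pathway genes and 1 end joining gene fell.

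Signs turned only for values that did not pass. RAD51B was at -0.0344 with quantile normalisation and -0.24 with positive replicate 1 as the only positive library, and at -0.0239 to 0.206 when 1 library was left out. RAD50 was at -0.0140 with quantile normalisation, -0.0186 with median centring and -0.0366 with positive replicate 1 alone, and -0.0437 to 0.0383 with 1 library left out. NBN was at -0.0423 with positive replicate 1 alone, FANCL at -0.0115 without positive replicate 2 and up to 0.351 with another library left out, and the difference in the log2 ratio of RAD51C to XRCC3, -0.09, was 0.34 with a pseudocount of 5 and 0.0662 when rescaled to 1000000. With a pseudocount of 5 the median of the 40 genes was 0.67 and the difference for RAD54L to RAD54B 0.0207, against 0.63. The cause of these shifts was not tested. Estimated depth limits low genes such as RMI2 and RAD51AP1 in the negative libraries.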
